A study of Mus musculus with 20 samples.

Results

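The mesothelial identity genes are 10 genes by which pathologists and single-gene studies recognise the lining cells of the body cavities and the tumours that come from them: Wt1, Msln, Upk3b, Upk1b, Lrrn4, Gpm6a, Pdpn, Calb2, Muc16 and Bnc1. They were chosen by gene symbol, and each symbol matched 1 row of a table of 21884 genes. The RNA came from malignant mesothelioma (MM) of C57/BL6 mice, grown as 3D MM organoids (7 libraries) and as 2D MM cell lines (7 libraries), and every line gave 1 library in each culture. Crocidolite asbestos had induced the tumours of m5, m12, m28, m54 and m60 in p53+/- mice and that of m67 in a WT mouse, and carbon nanotube that of m107 in a p53+/- mouse, in every case after intraperitoneal injection. By the labels each line goes back to 1 mouse, so the libraries of a line should be 1 tumour in 2 cultures and p-values describe the spread between lines. For m5 and m12 the data go against this, as given below. Cultures also differed in medium, because per the study's methods the organoids grew on Matrigel in serum-free medium with EGF, R-spondin1, Noggin and Y-27632, and the 2D lines in medium with fetal bovine serum; the effects of dimension and of medium cannot be told apart. The 6 normal mesothelial samples of the series were not analysed here.

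The mesothelium is a single layer of cells of mesodermal origin over the pleura, the peritoneum and the pericardium, with features of both epithelium and mesenchyme. WT1 is a zinc finger transcription factor that is active in the mesothelium from the embryo on, and BNC1 (basonuclin 1) is another zinc finger protein of mesothelial and some epithelial cells. Mesothelin is a surface protein attached by a lipid anchor and binds MUC16, a very large membrane mucin also known as CA125. Pathologists stain for WT1, podoplanin and calretinin, the product of Calb2, to tell mesothelioma from carcinoma.

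Library depth ran from 11134018 to 53911770 reads, and 3 reads, the most that a count of 0 allows at this depth, correspond to 0.0556 to 0.269 reads scaled to a common library total (CPM). Such limits cover counting error only. Several libraries stood apart from the others. Summed CPM of 4 Y-linked genes was 0 in the 3D m5 library but 249 in 2D m5, and 200 in the 3D m12 library but 0 in 2D m12, so the cultures of m5 and of m12 did not match each other in this measure. Line m28 was near 0 in either culture (0 CPM in 3D and 0.666 CPM in 2D), and m54 had 11.2 CPM in 3D and 55.1 CPM in 2D. Per the study's methods the injected mice were male, and why Y-linked genes were at or near 0 in some libraries was not tested. Across genes, the deviations from the culture means correlated between the 2 libraries of a line at 0.317 to 0.703 in the other 5 lines, but at 0.004 in m5 and -0.110 in m12. The libraries labelled m5, and those labelled m12, may therefore not come from 1 tumour, and every fold between cultures given for these lines compares the libraries so labelled and may not be a difference of culture. In the 3D m12 library the 15 markers of gut and duct epithelium summed to 4036 CPM, against 30.1 to 267 CPM in the other 13 libraries, and the 10 markers of mesenchyme to 1.84 CPM, against 3392 to 17145 CPM elsewhere. In the 3D m67 library the 10 macrophage and leukocyte markers summed to 2172 CPM, against 2.95 to 47.6 CPM elsewhere. Their part in the results was not tested, and the culture differences, the tests between lines, the stain groups and the correlations are also given without m12 or without both m5 and m12.

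Of the 10 genes, 9 were expressed in nearly all libraries and 1, Calb2, in almost none. The 9 expressed genes were among the 11677 genes that reached 1 CPM in 7 or more libraries and were therefore tested. Their mean level was lower in MM organoids than in 2D MM cell lines for 9 of 9 genes, and none of the 9 differences passed the limma test at an adjusted p of 0.05 over all genes. The levels were spread widely over the 7 lines, with m107 at the top of most genes and, among organoids, m12 at the bottom.

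**Figure D1:**
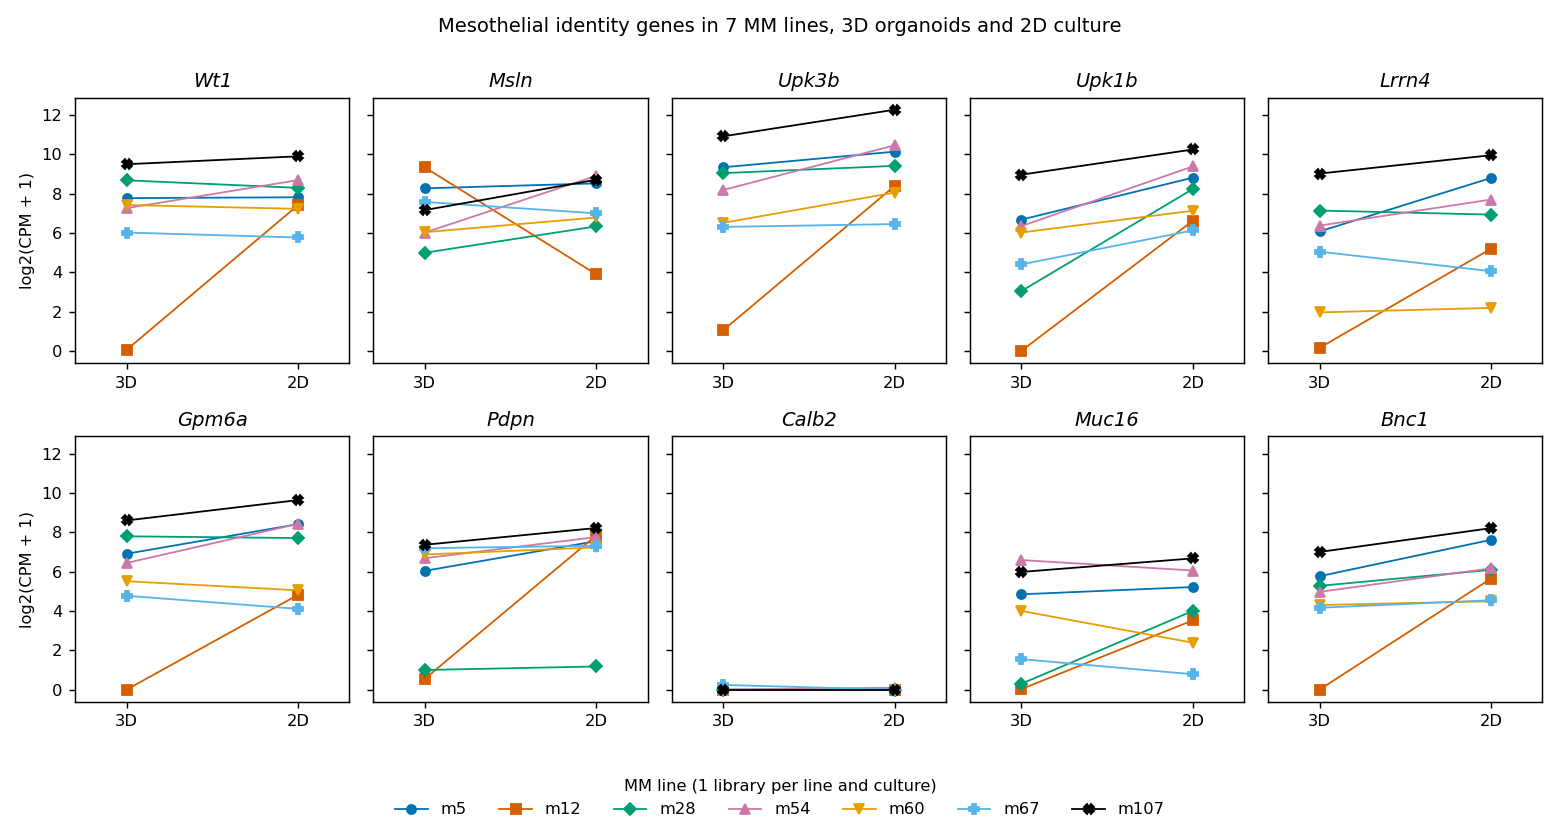
Level of each of the 10 genes as log2(CPM + 1) in 3D MM organoids (left) and 2D MM cell lines (right), with 1 point per library and a line joining the cultures of each MM line. All lines run upward to the right for Upk3b, Upk1b, Pdpn and Bnc1, m12 (orange) starts near 0 in 8 of the 9 expressed genes and runs the other way in Msln, and Calb2 is flat at 0.

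Wt1 had 0.0371 CPM at the lowest, 171 at the median and 724 at the highest in MM organoids, against 53.6, 225 and 957 CPM in 2D MM cell lines. The 3D m12 library held 2 Wt1 reads where 2D m12 held 6959, a level 4583-fold lower in the organoid with a 95% exact counting interval of 1268 to 37847. Line m54 was the next lowest relative to 2D, with 153 CPM in 3D and 413 CPM in 2D. In m5, m28, m60, m67 and m107 the cultures lay within 1.32-fold of each other, as in m5 with 218 CPM in 3D and 225 CPM in 2D. The mean log2 difference of 3D minus 2D was -1.20 (SE 0.88, limma adjusted p = 0.419), with 4 lines lower and 3 higher, and without m12 it was -0.17 (adjusted p = 0.656). The gene lies on GRCm39 chromosome 2 from 104956625 to 105003961 on the plus strand. The 250 bases before its annotated start are shown because Wt1 and the genes that varied with it are the core of the account; capitals mark matches to AGATAA, the letters bound by GATA factors, or to GNGTGGGNG, letters bound by the WT1 zinc fingers, on either strand.
Wt1 promoter, chr2:104956375-104956624, plus strand: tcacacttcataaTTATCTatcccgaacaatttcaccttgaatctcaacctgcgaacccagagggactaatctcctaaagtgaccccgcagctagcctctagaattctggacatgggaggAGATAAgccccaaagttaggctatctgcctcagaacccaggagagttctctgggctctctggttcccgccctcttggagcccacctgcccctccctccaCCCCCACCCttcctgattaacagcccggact
In this window AGATAA matched at 2 places and GNGTGGGNG at 1. Of 21686 annotated promoters of the same length, 9.67% held AGATAA and 13.3% held GNGTGGGNG, so either match is common.

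Bnc1, on chromosome 7 from 81616401 to 81642341 on the minus strand, had 0, 30.5 and 127.8 CPM at the lowest, median and highest in MM organoids, against 21.6, 67.6 and 297 CPM in 2D MM cell lines. The organoid was lower than its 2D line in 7 of 7 lines, from m60 with 18.8 CPM in 3D and 21.6 CPM in 2D to m12 with 0 reads in 3D and 49.4 CPM in 2D. At a floor of 3 reads for the 3D library, the m12 organoid was at least 888-fold lower. The mean log2 difference was -1.62 (SE 0.60, limma adjusted p = 0.143). Without m12 it was -0.94 and passed the test (adjusted p = 0.0459), and without m5 and m12 it was -0.76 (adjusted p = 0.0872).

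Upk3b and Upk1b encode uroplakins, membrane proteins first known from the plaques that cover the bladder urothelium and also made by mesothelial cells. They held the 2 most negative mean differences of the 9 genes. Upk3b, on chromosome 5 from 136067350 to 136075342 on the plus strand, had 1.06, 291 and 1937 CPM at the lowest, median and highest in MM organoids, against 86.7, 683 and 4956 CPM in 2D MM cell lines. The organoid was lower in 7 of 7 lines, by 1.11-fold in m67, 4.85-fold in m54 and 317-fold in m12. The mean log2 difference of Upk3b was -1.98 (SE 0.79, limma adjusted p = 0.166), and without m12 it was -1.08 (adjusted p = 0.0548).

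Upk1b, on chromosome 16 from 38591981 to 38620727 on the minus strand, had 0, 64.1 and 500 CPM at the lowest, median and highest in MM organoids, against 69.1, 301 and 1218 CPM in 2D MM cell lines. It averaged 110 ± 176 CPM in MM organoids and 421 ± 412 CPM in 2D MM cell lines (SD, n = 7 each). It was lower in the organoid of all 7 lines and by at least 2.18-fold in each, the smallest gap being that of m60 with 64.1 CPM in 3D and 140 CPM in 2D. In m28 it had 7.24 CPM in 3D and 301 CPM in 2D, a 41.5-fold difference in a line whose Upk3b differed by only 1.29-fold. In m12 it had 0 reads in 3D and 97.3 CPM in 2D, at least 1749-fold lower in the organoid at a floor of 3 reads. The mean log2 difference of Upk1b was -3.02 (SE 0.67, 95% interval -4.55 to -1.48), just short of the threshold by limma (adjusted p = 0.0507). Without m12 it was -2.42 and passed (adjusted p = 0.0329), and without m5 and m12 it was -2.47 and did not (adjusted p = 0.0637). Of all 11677 tested genes 0.283% had a more negative mean difference than Upk1b and 0.882% than Upk3b.
The 250 bases before the start of each uroplakin gene are shown because their windows held a match to GGAATG; those of Pdpn and Bnc1, which were also lower in 3D in every line, held none. Capitals mark matches to this motif, the core letters bound by TEAD factors, on either strand.
Upk3b promoter, chr5:136067100-136067349, plus strand: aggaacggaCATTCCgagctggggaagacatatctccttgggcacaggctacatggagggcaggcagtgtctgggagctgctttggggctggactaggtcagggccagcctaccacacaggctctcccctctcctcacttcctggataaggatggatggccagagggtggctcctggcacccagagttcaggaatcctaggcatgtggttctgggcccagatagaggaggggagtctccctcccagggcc
Upk1b promoter, chr16:38620728-38620977, minus strand: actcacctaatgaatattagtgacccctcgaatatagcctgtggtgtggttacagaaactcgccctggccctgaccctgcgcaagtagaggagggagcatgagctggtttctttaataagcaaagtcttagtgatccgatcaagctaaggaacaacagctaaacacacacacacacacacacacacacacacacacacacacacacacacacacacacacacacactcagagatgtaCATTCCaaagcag
Each window held 1 match, 241 to 236 bases before the start of Upk3b and 13 to 8 bases before that of Upk1b. GGAATG occurred in 3 of the 10 windows of the mesothelial identity genes and in 12% of all annotated promoters. The urothelial markers Upk1a, Upk2, Upk3a and Krt5 were near 0 in the same libraries. Together they summed to 0.539 to 1.15 CPM in MM organoids and 0.269 to 0.634 CPM in 2D MM cell lines. With Krt20 and Grhl3 added, the sums were 0.539 to 14.6 CPM in MM organoids, highest in 3D m67. In 2D MM cell lines they were then 0.342 to 1.53 CPM.

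Lrrn4, a leucine-rich repeat membrane protein, and Gpm6a, a tetraspan membrane glycoprotein, are best known from neurons and are also mesothelial genes. Lrrn4, on chromosome 2 from 132705985 to 132735941 on the minus strand, had 0.111, 66.6 and 520 CPM at the lowest, median and highest in MM organoids, against 3.55, 121 and 995 CPM in 2D MM cell lines. Line m60 was low in either culture, with 2.89 CPM in 3D and 3.55 CPM in 2D, while its Upk1b and Wt1 were in the range of the other lines. The largest gaps between cultures were those of m12, 321-fold lower in 3D, and m5, with 66.6 CPM in 3D and 445 CPM in 2D; m28 and m67 were higher in 3D. For Lrrn4 the mean log2 difference was -1.29 (SE 0.65, limma adjusted p = 0.248) and shrank to -0.26 without m5 and m12 (adjusted p = 0.664). The window before the start of the canonical Lrrn4 transcript is shown because it was the third with GGAATG. This window lies inside the gene span given above, which reaches further upstream. Capitals mark that match and 1 match to GNGTGGGNG, which do not overlap.
Lrrn4 promoter, chr2:132722828-132723077, minus strand: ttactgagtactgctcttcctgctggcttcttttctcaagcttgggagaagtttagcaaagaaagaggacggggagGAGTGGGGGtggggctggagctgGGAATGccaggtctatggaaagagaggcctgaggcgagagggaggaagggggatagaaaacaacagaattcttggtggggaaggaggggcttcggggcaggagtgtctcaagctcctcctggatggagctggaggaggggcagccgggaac
The letters of GNGTGGGNG occurred in 2 of the 10 windows, those of Wt1 and Lrrn4. The Lrrn4 gene overlaps Crls1, a protein-coding gene on the other strand, and whether the counting used strand is not given in the sources used here, so reads of these genes may not have been told apart. Wt1, Upk3b, Upk1b, Msln, Muc16 and Bnc1 overlap noncoding genes on the other strand, to which the same applies. Gpm6a overlaps 5 unverified gene models on its own strand, whose reads strand cannot tell apart from its own.

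Gpm6a, on chromosome 8 from 55407719 to 55513912 on the plus strand, had 0, 86.3 and 390 CPM at the lowest, median and highest in MM organoids, against 16.3, 209 and 803 CPM in 2D MM cell lines. The organoids of m28, m60 and m67 were higher than their 2D lines and those of m5, m12, m54 and m107 lower. In m12 it had 0 reads in 3D, at least 492-fold lower than the 27.4 CPM of 2D m12. For Gpm6a the mean log2 difference was -1.16 (SE 0.61, limma adjusted p = 0.265), and without m5 and m12 it was -0.36 (adjusted p = 0.602).

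Msln, on chromosome 17 from 25967312 to 25985619 on the minus strand, stood apart from the other genes. It had 30.9, 143 and 647 CPM at the lowest, median and highest in MM organoids, against 13.9, 127 and 480 CPM in 2D MM cell lines. Its highest organoid was m12, where each of the other 8 expressed genes was at its lowest among the organoids, and its lowest 2D line was m12 as well, so that Msln was 46.5-fold higher in 3D in this line. Lines m5, m28, m54, m60 and m107 were lower in 3D, most of all m54 with 64.0 CPM in 3D and 480 CPM in 2D, and m67 was higher in 3D with 190 against 127 CPM. Over 7 lines the mean log2 difference was -0.11 (SE 0.85, limma adjusted p = 0.950) with all lines and -1.03 without m12 (adjusted p = 0.134). Its promoter window is shown beside the others for this reason, and it held no match to any of the 3 motifs. The window precedes the start of the canonical transcript and lies inside the gene span given above, which reaches further upstream.
Msln promoter, chr17:25973433-25973682, minus strand: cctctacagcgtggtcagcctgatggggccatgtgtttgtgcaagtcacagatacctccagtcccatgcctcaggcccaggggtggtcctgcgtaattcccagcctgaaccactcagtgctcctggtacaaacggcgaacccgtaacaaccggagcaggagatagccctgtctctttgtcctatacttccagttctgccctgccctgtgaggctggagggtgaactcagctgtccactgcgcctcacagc

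Muc16, the gene of the mucin that mesothelin binds, on chromosome 9 from 18406745 to 18585826 on the minus strand, had 0.0185, 15.1 and 95.9 CPM at the lowest, median and highest in MM organoids, against 0.723, 15.1 and 102 CPM in 2D MM cell lines. The direction differed between lines. It was lower in 3D in m28 with 3 reads, a level 65.2-fold below that of 2D m28 (95% exact counting interval 22.0 to 318), and in m12 with 1 read. It was higher in 3D in m54, m60 and m67, up to 3.55-fold in m60. For Muc16 the mean log2 difference was -0.76 (SE 0.67, limma adjusted p = 0.500), and it was -0.31 without m12, -0.30 without m5 and m12 and -0.27 without m28.

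Pdpn encodes podoplanin, a mucin-type surface protein that links to the cytoskeleton through ezrin and moesin and is also a marker of lymphatic endothelium. The gene lies on chromosome 4 from 142990871 to 143026143 on the minus strand. It had 0.464, 102 and 165 CPM at the lowest, median and highest in MM organoids, against 1.27, 188 and 299 CPM in 2D MM cell lines. Line m28 was almost without it in either culture, with 1.00 CPM in 3D and 1.27 CPM in 2D, whereas the 2D libraries of the other 6 lines had 150 CPM or more. The organoid was lower in 7 of 7 lines, by 1.09-fold in m67, 2.88-fold in m5 and 497-fold in m12. For Pdpn the mean log2 difference was -1.63 (SE 0.81, limma adjusted p = 0.244) and without m5 and m12 it was -0.52 (adjusted p = 0.156). Of the lymphatic endothelial markers, Prox1 and Lyve1 were near 0, at 2.36 CPM or less in all 14 libraries, while Flt4 ran from 1.85 to 452 CPM in MM organoids and from 33.4 to 495 CPM in 2D MM cell lines.

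Calb2, the calretinin gene on chromosome 8 from 110864128 to 110894881, was at the limit of detection. It had 3 reads in 3D m67 and 1 read each in 2D m5 and 2D m54, 5 reads in all 14 libraries. The remaining libraries had 0 reads, which allows up to 0.0556 to 0.269 CPM depending on depth. At this depth no difference between cultures or lines could be seen, and the related genes Calb1 and S100g were also too low to test.

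Levels of different genes were compared per kilobase of annotated exon. By mean CPM per kilobase Upk3b was the highest of the 10 genes, with 145 in MM organoids and 359 in 2D MM cell lines, and it led in 4 of 7 organoids and 6 of 7 2D lines. The exceptions were Msln in 3D m12 and 3D m67, Wt1 in 3D m60 and Pdpn in 2D m67. Muc16 was the lowest of the 9 expressed genes in 11 of 14 libraries, with a mean of 1.10 in MM organoids and 1.27 in 2D MM cell lines. The genes between them had means of 8.22 to 45.9 in MM organoids and of 20.9 to 109 in 2D MM cell lines, with standard deviations over lines as large as the gaps. Within libraries part of the order recurred, with Gpm6a above Lrrn4 in 6 of 7 organoids and 7 of 7 2D lines, and Wt1 above Bnc1 in 7 of 7 organoids and 6 of 7 2D lines.

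**Figure D2:**
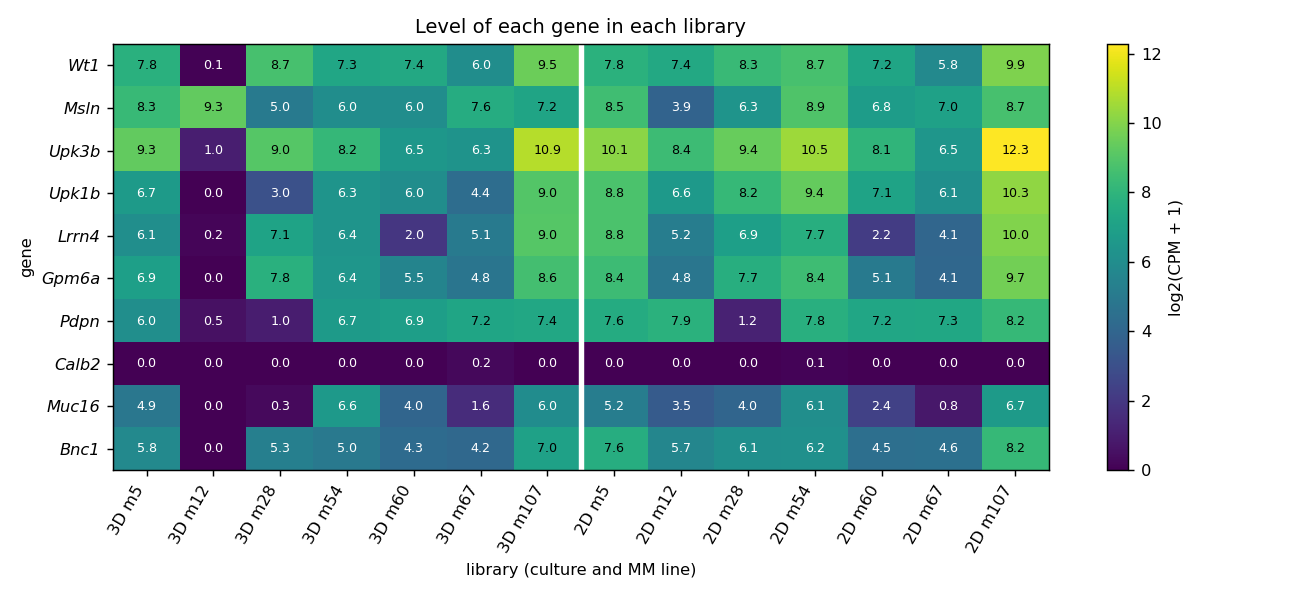
Level of each gene (rows) in each library (columns, 3D MM organoids left of the white bar and 2D MM cell lines right of it), as log2(CPM + 1) by colour and number. The m107 columns are the brightest in either culture, the 3D m12 column is dark but for Msln, and the dark cells of Pdpn in m28 and Lrrn4 in m60 recur in both cultures.

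Levels varied widely between lines. Summed over the 10 genes, m107 had 4568 CPM in 3D and 10044 CPM in 2D, and m67 had 577 CPM in 3D and 551 CPM in 2D. Line m107 was highest of the 7 lines for 7 of the 9 expressed genes in 3D, against 9.45% of all tested genes, and for 8 of 9 in 2D, against 24.5% of all tested genes. The exceptions were Msln in either culture and Muc16 in 3D, for which m54 was highest. The 2D library of m67 was the lowest of its culture for 5 genes, Wt1, Upk3b, Upk1b, Gpm6a and Muc16, against 8.54% of tested genes. Of the variance of log2 levels over all 14 libraries, line took 83.0% for Lrrn4, 80.8% for Gpm6a, 79.1% for Muc16, 71.1% for Pdpn and 66.9% for Upk3b, against a median of 59% over all tested genes. Wt1 (61.4%) and Bnc1 (61.0%) lay near that median, and Upk1b (53%) and Msln (33.0%) below it. Without m5 and m12, 7 of the 9 genes lay above the median of 67%, from 83.8% for Muc16 to 98.4% for Pdpn, and Upk1b (54.5%) and Msln (49.5%) again below it.

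By the limma F test of line, 0 of the 9 genes passed at an adjusted p of 0.05 over all genes with all lines, against 1.33% of tested genes. At an unadjusted p under 0.05, 7 of 9 did, against 26.1%, and edgeR on the recovered reads gave 0 at the adjusted and 2 at the unadjusted threshold, where 24.3% of tested genes were called. DESeq2 on the same reads called 5 of 9 at the adjusted threshold, with all lines in the fit, against 30.8% of tested genes. The limma count turned on m12. Without m12, 7 genes passed, against 10.4% of tested genes, and without m5 and m12, 8 did, against 17.3% of tested genes, with Msln as the exception (adjusted p = 0.136). In those 5 lines the adjusted p was 0.000832 for Pdpn, 0.00224 for Lrrn4, 0.00502 for Upk3b and for Bnc1, and 0.00962 for Wt1, by limma. For Pdpn, m28 stood apart from them with 1.00 CPM in 3D and 1.27 CPM in 2D, where the others had 102 CPM or more. With m5 and m12 kept, the unadjusted p of Pdpn by the limma F test was 0.0163 over 7 lines and 0.346 without m28.

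Across the 9 expressed genes the 3D against 2D comparison gave no call by limma at the adjusted threshold (0 lower, 0 higher), where 1.18% of tested genes were lower and 2.1% higher. At an unadjusted p under 0.05, 3 genes (Upk3b, Upk1b and Bnc1) were lower and 0 higher, against 8.69% of tested genes lower, and edgeR gave 1 of 9 lower at that level, against 11% of tested genes. At the adjusted threshold edgeR on the recovered reads called 0 of the 9 lower, against 0.3% of tested genes, and DESeq2 1 (Upk1b), against 7.48%. The median of the 9 mean log2 differences was -1.29, against 0.06 over all tested genes. It was -0.68 without m12 and -0.52 without m5 and m12, each against 0.08 over all tested genes. A mean difference below 0 was found for 9 of 9 genes and for 43.9% of tested genes, although that of Msln (-0.11) turned above 0 without m28, m54 or m107 and in the 5 p53+/- lines given crocidolite. A mean below -1 was found for 7 of 9 genes and 4.01% of tested genes, but without m12 for 3 genes (Upk1b, Upk3b and Msln) and 3.56%. Upk3b, Upk1b, Pdpn and Bnc1 were lower in 3D in 7 of 7 lines, as 3.9% of tested genes were. Flipping the signs of the 7 differences in an exact permutation test (two-sided) gives any gene with 7 differences of 1 sign the smallest possible p, 0.0156, and gave 0.141 to 0.938 for the other 5 genes. Of tested genes 7.05% were higher in 3D in every line. The same 4 genes were lower in 5 of 5 lines other than m5 and m12, against 7.47% of tested genes. The ranges of the 3D and 2D libraries overlapped for all 9 genes, and they did not overlap for 1% of tested genes. Some markers of other cell types also moved in the same comparison, in both directions, and their part in these differences was not tested. The 9 tested of 10 mesenchyme and fibroblast markers had a median log2 difference of -1.83, with 0 called by limma. Their median was -0.23 without m5 and m12. While 2 of them, Vim and Col1a1, were lower in 7 of 7 lines, Pdgfra (0.82), Pdgfrb (0.32) and Dcn (0.15) had mean differences above 0. Without m5 and m12 Pdgfra passed as higher in 3D (1.68, limma adjusted p = 0.0379). Of the gut and duct markers 4 were tested and 1 was called, Sox9, against 2.1% of tested genes called higher. Sox9 was higher in 3D with a log2 difference of 2.26 (limma adjusted p = 0.0234). Muc1 (1.43), Cdh1 (0.71) and Foxa2 (0.41) were not called, and Cdh1 turned to -0.58 without m5 and m12. In bulk RNA fewer cells of a type and less RNA per cell cannot be told apart.

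**Figure D3:**
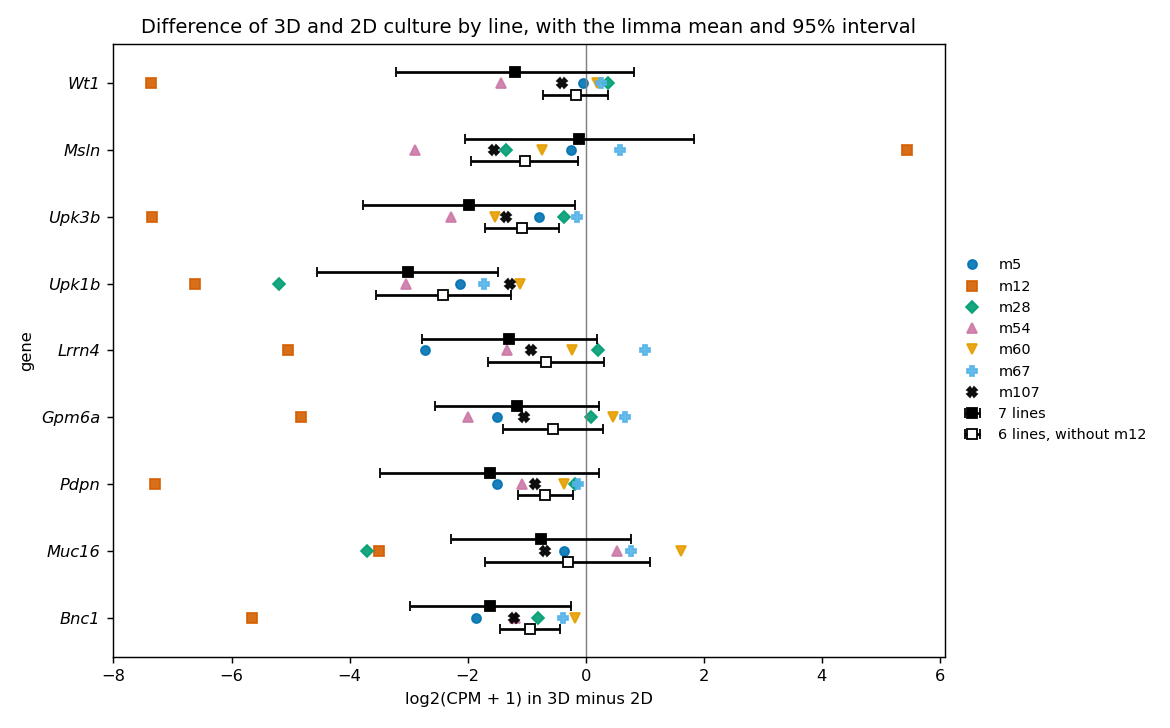
Difference of log2(CPM + 1), 3D minus 2D, for the 9 expressed genes, with 1 coloured point per MM line, the limma mean over 7 lines (filled square) and over the 6 lines without m12 (open square), and 95% intervals as bars. The m12 point lies beyond -3 for 8 genes and at 5.44 for Msln, and the open squares lie nearer to 0 than the filled ones for 8 genes.

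By line, the median of the 9 log2 differences was -1.51 in m5, -5.66 in m12, -0.37 in m28, -1.43 in m54, -0.23 in m60, 0.25 in m67 and -1.04 in m107. All 9 genes were lower in 3D in m5 and in m107, 8 in m12 and in m54, 6 in m28 and in m60, and 4 in m67. Over all tested genes 37.1% (m67) to 50.6% (m60) were lower in 3D within a line, and the medians ran from -0.01 to 0.16. The m12 difference was the most negative of the 7 lines for 7 of the 9 genes, against 26.4% of tested genes; for Muc16 it was that of m28, at -3.71. Without m12, 2 genes were lower by limma at the adjusted threshold (Upk1b and Bnc1), against 2.25% of tested genes. Without m5 and m12, 0 were, against 1.11%, and 5 were at an unadjusted p under 0.05, against 7.47%.

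The 3D m12 library was the lowest of the 7 organoids for 8 of the 9 genes, against 22.5% of all tested genes, and held 0 reads of Upk1b, Gpm6a and Bnc1. It was the highest for Msln. In the same library the simple-epithelium keratin Krt8 had 2576 CPM, against 1.53 to 1222 CPM in the other 13 libraries. Krt19 had 2493 CPM, against 26.0 to 1063 CPM in the others. Both keratins are also among the further mesothelial genes tested below. Epcam, an epithelial adhesion molecule, had 430 CPM against 0 to 2.16 CPM in the other 13 libraries. The mucin Muc1 had 849 CPM there and 0.482 to 2.41 CPM elsewhere. Vim, the gene of the intermediate filament vimentin, had 0.668 CPM there and 799 CPM or more elsewhere. The cell type label of all samples reads mesothelial cells, and the titles of the 14 libraries name malignant mesotheliomal cells. Of the 10 genes, 2 reached 1 CPM in the 3D m12 library (Msln, and Upk3b at 1.06 CPM), against 8 or 9 in each of the other 13 libraries.

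WT1 and mesothelin had been stained by the authors in the tumours that the lines came from, and the transcripts were set beside those stains. The question was whether a line from a stained tumour carried more of the transcript in culture. For WT1, m5, m28 and m107 were positive and m12, m54 and m60 negative. In MM organoids Wt1 ran from 218 to 724 CPM in lines of stained tumours and from 0.0371 to 171 CPM in lines of unstained tumours. These ranges did not overlap, and the share of all tested genes that part the same lines was not counted. In 2D MM cell lines it ran from 225 to 957 CPM in lines of stained tumours and from 149 to 413 CPM in lines of unstained tumours, which overlap through m54. For mesothelin, m5, m28, m54 and m107 were positive and m12 and m60 negative. In MM organoids Msln ran from 30.9 to 308 CPM in lines of stained tumours and from 64.8 to 647 CPM in lines of unstained tumours. In 2D MM cell lines it ran from 79.9 to 480 CPM in lines of stained tumours and from 13.9 to 110 CPM in lines of unstained tumours, overlapping through m28 and m60. The ends at 0.0371 CPM of Wt1 and at 647 and 13.9 CPM of Msln are m12 libraries, and the stains of m5 and m12 may not belong to both libraries so labelled. Without m5 and m12, Wt1 in MM organoids ran from 410 to 724 CPM in the 2 lines of stained tumours and from 153 to 171 CPM in the 2 of unstained tumours, and in 2D MM cell lines from 314 to 957 CPM and from 149 to 413 CPM, which overlap. Msln then ran from 30.9 to 143 CPM in 3D and from 79.9 to 480 CPM in 2D in the 3 lines of stained tumours, and the 1 line of an unstained tumour, m60, lay within both ranges. No test was made, since a two-sided exact permutation test cannot go below 0.1 with 3 lines against 3 or 0.133 with 4 against 2. Line m67, grown from ascites, had no stain, and had 64.1 CPM of Wt1 in 3D and 53.6 CPM in 2D.

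**Figure D4:**
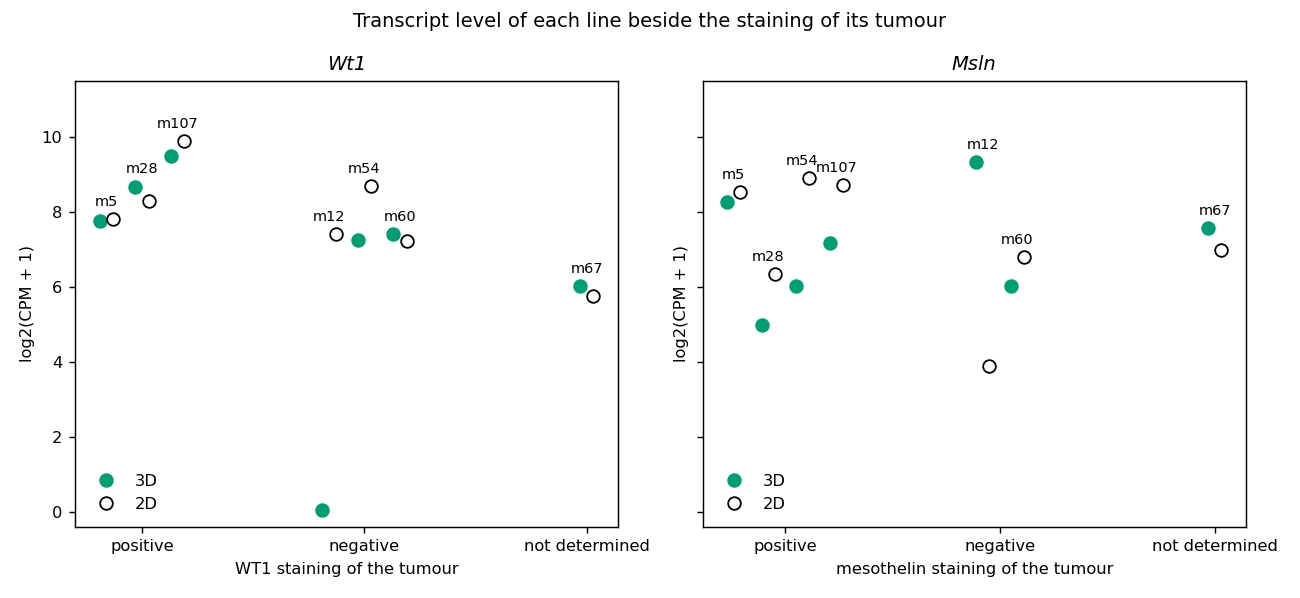
Level of Wt1 (left) and Msln (right) as log2(CPM + 1) in 3D MM organoids (filled green) and 2D MM cell lines (open) of each named line, grouped by the WT1 or mesothelin staining of the tumour. For Wt1 every filled point of a stained tumour (218 to 724 CPM) lies above those of unstained tumours. The share of all tested genes that do so was not counted. For Msln the groups overlap and m12 is highest in 3D and lowest in 2D.

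The 9 expressed genes did not vary as 1 block. Pearson correlation of log2(CPM + 1) over the 14 libraries, which share lines and are not independent, had a median of 0.71 over the 36 pairs of genes. The 21 pairs among Wt1, Upk3b, Upk1b, Lrrn4, Gpm6a, Muc16 and Bnc1 ran from 0.64 to 0.97 with a median of 0.87, and without m5 and m12 from 0.49 to 0.96 with a median of 0.76. This group of genes leaves out Msln and Pdpn, the members with the lowest correlations in these data, so its higher values follow in part from that choice. Correlations between pairs of other tested genes were not computed for comparison. The 8 pairs with Msln ran from -0.26 to 0.17, and without m5 and m12 from 0.23 to 0.71. The 8 pairs with Pdpn ran from 0.06 to 0.64, and without m5 and m12 from -0.16 to 0.67, where the low level of m28 stands against the other genes.

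**Figure D5:**
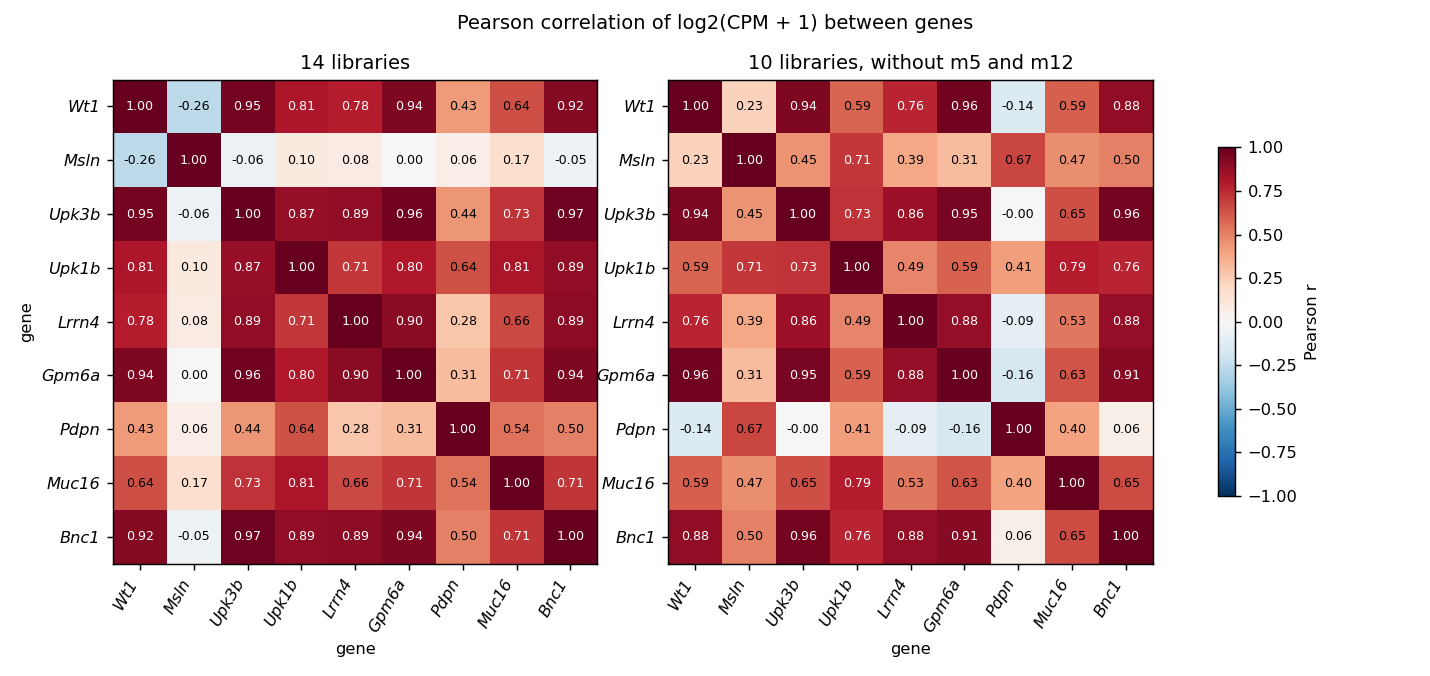
Pearson correlation between each pair of the 9 expressed genes over 14 libraries (left) and over the 10 libraries without m5 and m12 (right), by colour and number. The rows of Msln and Pdpn are pale beside the other 7 genes in the left panel, where Msln pairs run from -0.26 to 0.17, and the Msln row is redder in the right panel.

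Among the 11676 other tested genes, those most like Wt1 over the 14 libraries were Cdh11 (r = 0.97), Sv2a (0.96), Ptgis (0.96), Upk3b (0.95) and Col1a2 (0.95). Without m5 and m12 Upk3b was at rank 19 in likeness to Wt1, Cdh11 at rank 71 and Gpm6a at rank 4. Those most like Upk3b were Bnc1 (0.97), Crb2 (0.96), Gpm6a (0.96), Wt1 (0.95) and P3h4 (0.95), so 3 of its 5 nearest genes were mesothelial identity genes; Bnc1 was at rank 4 and Gpm6a at rank 7 without m5 and m12. Those most like Msln were Itga3 (0.88), Tspan15 (0.86), Rfx2 (0.86), Miga1 (0.86) and Synrg (0.86), none of them a mesothelial identity gene. The other members stood at ranks 3610 to 9090 in likeness to Msln, and at ranks 225 to 3338 without m5 and m12.

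Other genes of mesothelium and of the pathways around the members did not pass the comparison of cultures by limma. Of 20 further mesothelial genes 19 were tested, and none passed at the adjusted threshold (0 higher and 0 lower). Of all tested genes 2.1% were higher and 1.18% lower at that threshold. At an unadjusted p under 0.05, 2 of the 19 were higher (Slpi and Aqp1) and 3 lower (Rspo1, Thbd and Tbx18). Of all tested genes 8.69% were lower at that level. The share higher was not counted, so nothing is read from the number higher. The median log2 difference of the 19 genes was 0.27, against 0.06 for all tested genes. Between lines, Aldh1a2 (adjusted p = 0.0467), Nkain4 (0.0341) and Efemp1 (0.0474) of this list passed the limma F test, against 1.33% of tested genes. Of 12 genes linked to WT1 in kidney and gonad 8 were tested and 0 passed in either direction. At the unadjusted threshold 1 was higher, again without a counted share of all tested genes. From these 8, Podxl passed between lines (limma adjusted p = 0.0344), against the same 1.33% of tested genes. Of 8 partners of podoplanin and lymphatic genes 5 were tested and 0 passed; Msn, the gene of moesin, had a mean log2 difference of -1.45 and an adjusted p of 0.0585 by limma. The relatives of Bnc1 and of Gpm6a and the partners of mesothelin that could be tested (1, 2 and 2 genes) also gave 0 calls in either direction.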

How the data were processed

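RNA of 7 MM lines as 3D MM organoids and of the same lines in 2D culture was analysed (14 libraries). Per the study's methods, read quality was assessed by the authors with FastQC 0.10.0, adaptors were removed with Trim Galore 0.6.4, alignment to GRCm39 (Ensembl release 103) was by STAR 2.7.9a and counting by HTSeq 0.12.4. The authors deposited CPM, with each library scaled to its total. All values above 0 were whole multiples of 1 read within 0.001 reads, so reads were recovered. The deposited p-value and q-value columns hold the authors' own comparison of cultures and were not used.

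The main test was limma 3.58.1 (R 4.3.3) on log2(CPM + 1), fitted to line as a block and to culture with a trend in the variances. It covered 11677 genes that reached 1 CPM in 7 or more libraries. Fold changes on this scale understate those of low genes. P values were two-sided and adjusted by the Benjamini-Hochberg method over all tested genes, with a threshold of 0.05. Lines pair the libraries by their labels, each line of 1 mouse having been grown in both cultures. As a check, deviations from the culture means were correlated between the libraries of a line across genes, and 5 of 7 lines gave 0.317 to 0.703, with exceptions in m5 (0.004) and m12 (-0.110). The fits were tested on simulated data. Recovered reads were analysed with edgeR 4.0.16 and DESeq2 1.42.0 as alternatives. Other alternatives were pseudocounts of 0.1 and 5, no filter, a mean of at least 10 CPM, TMM and quantile normalization, no block, the 5 p53+/- lines given crocidolite, and lines left out.

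Positions, exon lengths and promoters (250 bases before the start of the canonical transcript) are from the GENCODE annotation of GRCm39. The members and lists were chosen with earlier results of these data known. All 10 members are named, with the 5 genes most correlated with Wt1, Msln and Upk3b; of the companion lists, genes past the adjusted threshold between cultures were to be named, and as none passed, the companion and marker genes named were chosen after their values were seen. Staining results are those the authors give for the tumours.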

Additional observations from a re-analysis of the deposited data

Results flagged for a closer look

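Within each culture the lowest or highest of the 7 lines was set against the others by Dixon's test. For the 9 expressed genes 3 of 18 groups had a library far from the rest. The nominal rate of the test is about 1 in 20, for independent and normally distributed values. The groups share libraries and are not independent, and the share of all tested genes with such a library was not counted. The count therefore does not show that these genes are unusual. Of all tested genes 22.5% were lowest in the 3D m12 library among the 7 organoids. Wt1 was far below the others in the 3D m12 library, at 0.0371 CPM, and Bnc1 in the same library, at 0 CPM. The gut and duct epithelial markers of this library summed to 4036 CPM, and their part was not tested. Pdpn was far below the others in 2D m28, at 1.27 CPM. Calb2 was far above the others in 3D m67, at 0.181 CPM, and in 2D m54, at 0.0693 CPM, which are 3 reads and 1 read. With nearly all other libraries at 0 such a gap follows from 1 library having reads, so these are not set against the nominal rate.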

How the results depend on the processing

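No member was called higher in 3D at the adjusted threshold under any alternative run. Percentages in parentheses are the shares of all tested genes called. The number lower in 3D at an adjusted p of 0.05, which was 0, was 1 (Upk1b) with a pseudocount of 5 (1.22%), a filter of a mean of 10 CPM (1.35%), quantile normalization (1.46%) or DESeq2 (7.48%), and 0 to 2 with 1 line left out, with 2 without m12 (2.25%) and 1 without m107 (1.38%). The number that differed between lines, which was 0, was 2 with a pseudocount of 5 (1.14%), 1 with quantile normalization (1.36%), 5 with DESeq2 (30.8%), 8 without m5 and m12 (17.3%), 0 to 7 with 1 line left out, with 7 without m12 (10.4%), and 4 with only the 3D m12 library left out and no block (2.65%), an alternative chosen after seeing the data. Without the block for line the counts were 0 lower, 0 higher and 0 between lines. Msln turned direction, to a log2 difference of 0.041 in the 5 p53+/- lines given crocidolite; with 1 line left out it ran from -1.03 (without m12) to 0.35 (without m54), and was 0.10 without m28 and 0.13 without m107. The cause was not tested. Of the 171 log2 differences of members under alternatives, 160 kept their direction and their side of the threshold, 7 passed it and 4 turned. Genes at 0 reads in 3D m12 are limited by depth, and with 1 library per line and culture a line's own difference has no replicate.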

Other observations

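Slpi, a secreted protease inhibitor made by mesothelial and other epithelial cells and chosen after its values were seen, ran opposite to the uroplakins. It averaged 108 ± 119 CPM in MM organoids and 22.8 ± 38.2 CPM in 2D MM cell lines (SD, n = 7 each) and was lower in 3D in 1 line only, m12. The log2 difference was 2.19 (SE 0.65, limma adjusted p = 0.0885) with all lines and 1.91 without m5 and m12 (adjusted p = 0.0162). Tbx18, a T-box factor of embryonic mesothelium chosen in the same way, averaged 28.6 ± 43.8 CPM in MM organoids and 55.4 ± 21.4 CPM in 2D MM cell lines (SD, n = 7 each), and was lower in 3D in 6 of 7 lines (log2 difference -2.03, limma adjusted p = 0.112).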
